A study of Mus musculus with 8 samples.

Results

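The complement system was examined through 9 genes chosen by name, C3, C4b, C1ra, Cfb, Serping1, Cd55, Cd59a, Masp1 and Lcn2, in a murine spleen stromal cell line. Of these 9 genes, 6 had a value among the 12589 genes analysed, namely C1ra, Masp1, C3, Serping1, Cd55 and Cd59a. No value was found for C4b, Cfb and Lcn2, which were not analysed here, and the lack of a value is not a measured level of 0. The cells were of the line mSSC-YFP, an immortalized mouse spleen-derived stroma that expresses a yfp reporter. Cultures in DMEM with fetal bovine serum received BMS493, an inhibitor of RA-signaling, in 4 samples, or its vehicle DMSO in the 4 control samples, for 48 h. The samples therefore share a single cell line, so that they hold 1 source of stroma. RNA was read by stranded mRNA sequencing. The values are the authors' means of the log2 normalized expression over all samples, both treatments together. Values of single samples were not analysed here. The depth of each sample and the spread between samples are therefore unknown, and whether RA-signaling inhibition changed any complement gene was not tested here.

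Complement is a cascade of plasma proteins that marks cells and microbes for removal. In the classical pathway the protease C1r activates C1s, which cleaves C4 and C2. In the lectin pathway proteases of the MASP family act, and in the alternative pathway factor B joins the cleaved form of C3, the protein at which all routes meet. Host cells are shielded by membrane proteins such as CD55, which speeds the decay of the convertases, and CD59, which blocks the membrane attack complex. The secreted C1 inhibitor encoded by Serping1 inactivates C1r, C1s and some of the MASP proteases. Liver is the main source of the plasma proteins, and fibroblasts are known to make several of them. Lcn2, named with these genes, encodes an iron-siderophore binding lipocalin of innate defence and is not a complement protein.

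All 6 members with a value were expressed below the median gene. The median mean log2 expression over all genes was 4.99, which corresponds to 31.7 CPM (normalized counts scaled to a common library total). The values are read here as CPM because the authors describe normalized gene counts and name no scaling by length. Those of all genes, taken back from the log2 scale, added up to 989369. That sum alone cannot tell CPM from a unit scaled by length. The membrane regulator Cd55 was the highest of the members, at 4.61, followed by the protease gene C1ra at 4.46. Cd59a had 3.45 and Masp1 3.33 on the same log2 scale. C3 was lower at 2.33, and the C1 inhibitor gene Serping1 had the lowest value, 1.22. These levels placed Cd55 at percentile 43.0 of all genes and C1ra at percentile 40.5. Cd59a and Masp1 lay near the lower quartile, at percentiles 26.2 and 24.9. C3 stood at percentile 15.8 and Serping1 at percentile 8.07. The lower quartile of all genes was at 3.33 on the log2 scale and the lowest gene at -0.58, so that 3 of the 6 members, Masp1, C3 and Serping1, were below that quartile.

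**Figure D1:**
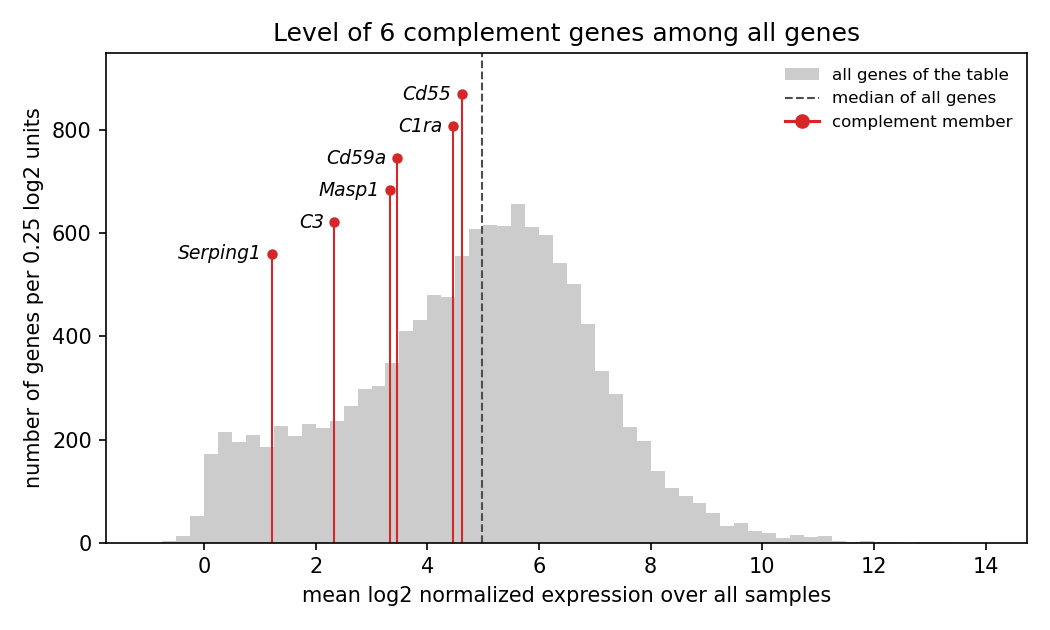
Histogram of the mean log2 normalized expression of 12589 genes over all samples (x axis, log2 units), with the number of genes per bin on the y axis. Red lines mark the 6 complement members, with line heights set only to separate the names, and the dashed line marks the median of all genes. All 6 members lie to the left of that median of 4.99, from Serping1 at 1.22 to Cd55 at 4.61.

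The label of the cells was compared with marker genes. All 8 stromal fibroblast markers had a value, and each of them was above the median of all genes on the log2 scale. Per kb of the longest transcript, however, Pdgfra was below the median, at percentile 34.6. The collagen gene Col1a1 was the highest gene of all, at 13.29 on the log2 scale, and Col1a2 had 12.47. Of 7 leukocyte markers 1 had a value, Cd68 at 1.36, and no value was found for Ptprc, Cd79a, Cd3e, Lyz2, Adgre1 and Csf1r. Of 5 endothelial markers 2 had a value, Kdr at 2.83 and Pecam1 at 0.47. No value was found for the 5 hepatocyte markers. Among 6 markers of follicular dendritic cells only Mfge8 had a value, 7.65, and none was found for Cr2, Fcer2a, Fcgr2b, Cxcl13 and Madcam1. By qPCR, however, the paper reports Cxcl13 mRNA in mSSC cells, raised by culture with leukemic cells and by RA. The part of Cd68-, Kdr- or Pecam1-expressing cells in the complement levels was not tested.

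To set the members against each other, the mean was divided by the length of the longest annotated transcript. On this scale, in CPM per kb, the members formed a higher and a lower group. Cd55 had 7.82, C1ra 7.38 and Cd59a 6.04 CPM per kb. Masp1 had 1.88, Serping1 1.31 and C3 0.979. From Cd55 to C3 the difference was 7.98-fold, 5.16-fold with the total exon length and 2.39-fold with the median transcript length. The median of all genes with a known length was 9.73 on this scale, so that none of the 6 members exceeded it. Neither the order inside each group nor the split into 2 groups is firm, as both depend on the length used. With the total length of all exons in place of the longest transcript, C1ra came before Cd59a and Cd55, whereas the higher and the lower group held the same genes. With the median transcript length, 608 bases for C3, C3 moved from place 6 to place 2 and so out of the lower group. Cd55 was 1.29 times the level of Cd59a with the longest transcript, 0.837 times with the total exon length and 3.06 times with the median length. Without the spread between samples, no neighbours in this order can be said to differ.

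C1ra encodes the protease C1r and lies on chromosome 6 from 124512405 to 124523443 on the plus strand of GRCm38 (mm10), with 11 exons in its longest transcript. It was expressed with 22.0 CPM. The gene of its partner protease C1s, listed under its older symbol C1s and annotated as C1s1, lies on the same chromosome from 124530345 to 124542359 on the minus strand. Its level was nearly the same, with 22.1 CPM. Per kb the partners had 7.38 and 7.50 CPM, and C1ra was 0.984 times C1s1. With the total exon length the ratio was 1.05, and with the median transcript length, 648 bases for C1s1, it was 0.217. No value was found for the 3 genes of C1q, the recognition subunit of this complex. Both genes have a nearby copy. Of the 2882 windows of 100 bases in the longest transcript of C1ra, 35.9% also occur in a transcript of another gene, mostly C1rb, and for C1s1 the share was 7.90%, with C1s2. Reads with a unique position alone were counted, and the part of the shared windows in these levels was not tested.

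Masp1, a protease gene of the lectin pathway, lies on chromosome 16 from 23449417 to 23520815 on the minus strand. It had 10.0 CPM. Per kb C1ra was 3.93 times as high as Masp1 with the longest transcript and 7.23 times with the total exon length, because the exons of the 4 annotated Masp1 transcripts add up to 9833 bases against 5345 in the longest. With the median transcript length it was 2.16 times. The value is for the gene as a whole and does not tell the 4 Masp1 transcripts apart. Of the 8 genes of the lectin pathway list, Masp1 was the only one with a value. Thus its partner Masp2 and the collectins and ficolins that recognise sugars were not analysed here.

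C3 lies on chromosome 17 from 57203970 to 57228136 on the minus strand and has 41 exons in its longest transcript. Its level was 5.03 CPM. C1ra exceeded it 7.54-fold and Cd59a 6.17-fold per kb of the longest transcript. With the total exon length the ratios were 7.55 and 6.16. With the median transcript length, 608 bases for C3, the direction turned, to 0.892 and 0.780 times C3. The gene of the C3a receptor, C3ar1, had 1.10 CPM per kb of the longest transcript against 0.979 for C3. C3 was 0.886 times C3ar1 with the total exon length, whereas with the median length it was 7.50 times C3ar1. C4a, a near copy of C4b annotated as a processed transcript, had 1.26 CPM and was 0.239 times C3 per kb. Of the windows of 100 bases in C4b, 16.5% are also in C4a, and reads that lie in those windows cannot be told apart. Properdin, encoded by Cfp, stabilises the alternative convertase and had 2.74 CPM, and C8g of the membrane attack complex had 1.28.

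Serping1 lies on chromosome 2 from 84765387 to 84775444 on the minus strand. With 2.32 CPM it was the lowest of the members. Of the protease genes whose products it inhibits, C1ra and C1s1 were higher per kb. C1ra was 5.61 times and C1s1 5.70 times the level of Serping1. With the total exon length these ratios were 7.38 and 7.06. With the median transcript length they were 5.29 and 24.4. For Masp1 the ratio was 1.43 with the longest transcript, 1.02 with the total exon length and 2.45 with the median length. Without the spread between samples, Masp1 and Serping1 cannot be said to differ. Another secreted regulator, clusterin, encoded by Clu, was far more abundant, at 61.2 CPM. Per kb Serping1 reached 0.0389 times the level of Clu, 0.0562 times with the total exon length and 0.0185 times with the median length. None of the windows of Serping1, C3 and Masp1 was found in another gene.

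**Figure D2:**
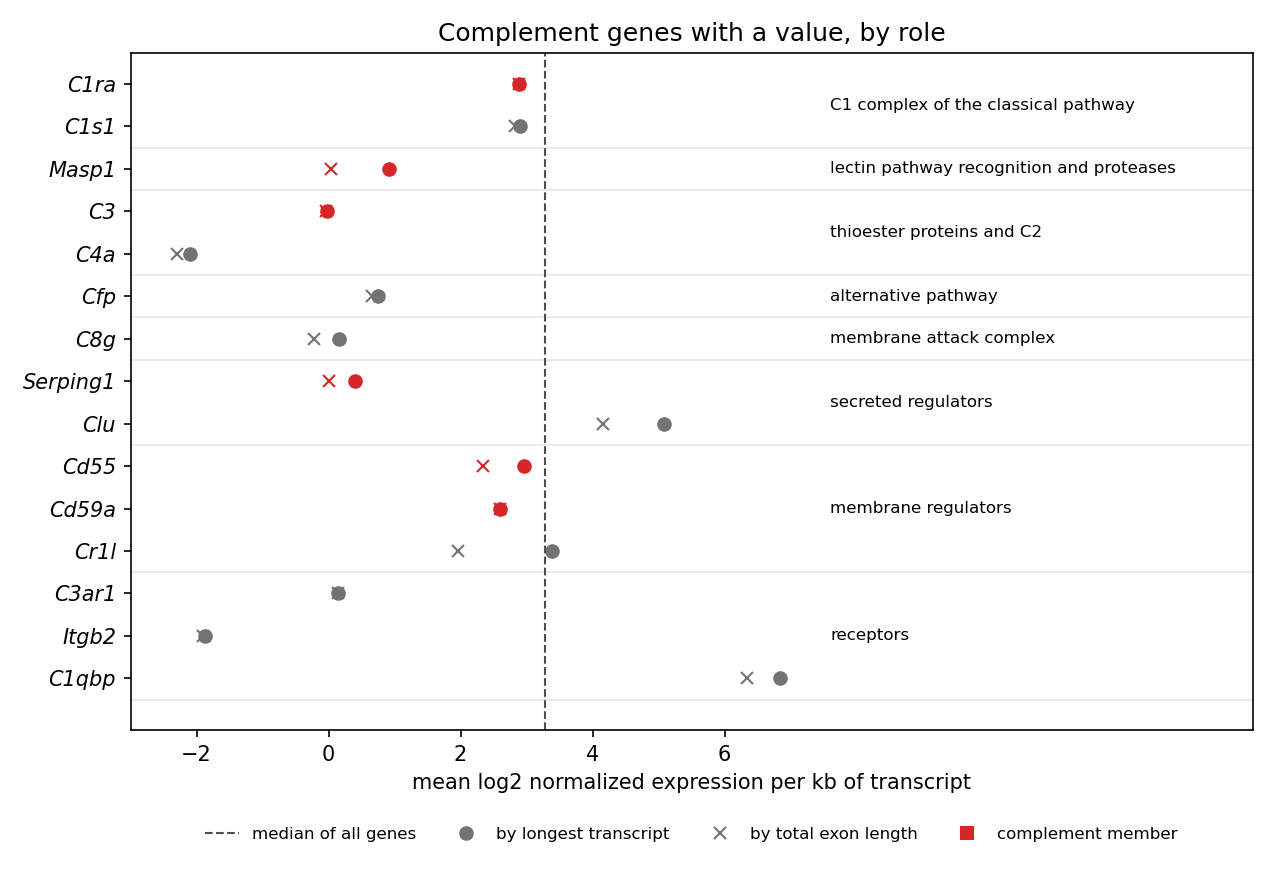
Mean log2 normalized expression per kb of transcript (x axis) of the 15 complement genes with a value, grouped by role. Dots use the longest transcript and crosses the total exon length, members are red, and the dashed line is the median of all genes by longest transcript. Cd55, Cd59a and C1ra lie just below that line, and the dots of Masp1, Serping1 and C3 lie between -0.03 and 0.91 on the log2 scale.

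All 3 membrane regulators with a value reached a mean log2 expression of at least 3, as did 7 of the 14 complement genes found under their current symbol. The lower quartile of all genes, 3.33, was itself above 3, so that most of the 12589 genes reached this level too. Cd55 lies on chromosome 1 from 130439027 to 130462744 on the minus strand and had 24.5 CPM. Cd59a lies on chromosome 2 from 104095801 to 104115354 on the plus strand and had 10.9. Cr1l, the rodent regulator also known as Crry, had 40.5 CPM, the highest of the list of membrane regulators. Per kb Cd55 was 0.745 times Cr1l with the longest transcript and 1.29 times with the total exon length, so their order depends on the length used. Of the windows of Cd55, 5.50% are shared with Cd55b, and 0.293% of those of Cd59a with Cd59b. No value was found for Cd55b, Cd59b, Cd46 and Csmd1.

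**Figure D3:**
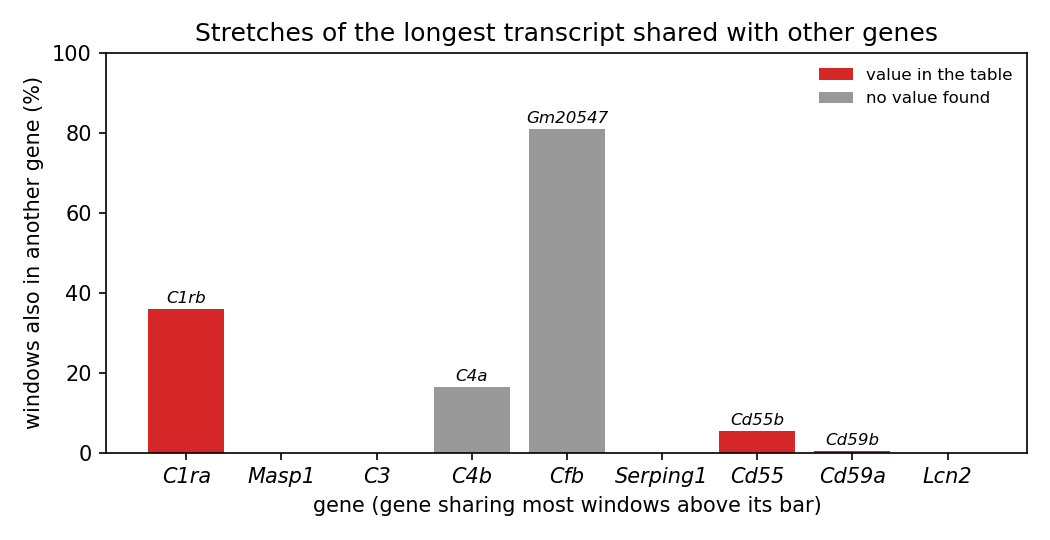
Share of the 100-base windows of each gene's longest transcript that also occur in a transcript of another gene (y axis, percent), with the gene sharing most windows named above the bar. Red bars are members with a value and grey bars members without one. The share is 81.0% for Cfb and 35.9% for C1ra, and 0 for Masp1, C3, Serping1 and Lcn2.

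Of the 3 members without a value, Cfb and C4b lie in the same region of chromosome 17, Cfb from 34856374 to 34862518 and C4b from 34728380 to 34743882, both on the minus strand. For Cfb, which encodes the protease of the alternative pathway, 81.0% of the windows also occur in Gm20547, another annotated gene. The search compared transcripts and not positions, so windows shared with a gene that overlaps at the same place are counted too. Whether Gm20547 is such a gene was not tested. Lcn2 lies on chromosome 2 from 32384633 to 32388252 on the minus strand, and none of its windows was shared. The genes of 2 receptors of lipocalin-2 had values, Slc22a17 with 13.8 and Lrp2 with 4.95 CPM.

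In the complement system as a whole, a list of 54 genes in 8 roles, 14 genes had a value under their current symbol and 15 with the older symbol of C1s1. Their median log2 expression was 3.33, against 4.99 over all genes. Clu, Cr1l and C1qbp were the 3 genes of the list above that median. C1qbp, a mitochondrial protein that also binds C1q, had 7.84 on the log2 scale, at percentile 94.0. The integrin gene Itgb2, a subunit of leukocyte complement receptors, was near the lowest value of the table, at -0.30. The receptor list had 3 of 10 genes with a value, and the membrane attack complex 1 of 7.

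The sequence before the start of 3 members is shown, since the drug acts on nuclear receptors and the letters they bind can be looked for there. RefSeq sequences of GRCm38.p6 were at hand for 5 members, C1ra, C3, Cd55, Cd59a and Lcn2. The 250 bases before the start were searched on both strands for 7 short motifs. Capitals mark the matches, which number 7 in the 5 genes, none overlapping another, and a match is no evidence of binding. The windows of C1ra and Lcn2 overlap the gene as GENCODE annotates it, that of Lcn2 over its whole length, and are not printed. The sequences run 5′ to 3′ on the strand of the gene and lie at chr17:57228137-57228386 for C3, chr1:130462745-130462994 for Cd55 and chr2:104095551-104095800 for Cd59a.
C3: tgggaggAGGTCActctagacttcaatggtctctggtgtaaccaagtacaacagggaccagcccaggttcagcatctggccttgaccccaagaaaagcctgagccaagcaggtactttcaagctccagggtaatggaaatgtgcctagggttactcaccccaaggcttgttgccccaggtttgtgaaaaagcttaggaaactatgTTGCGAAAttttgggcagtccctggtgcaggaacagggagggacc
Cd55: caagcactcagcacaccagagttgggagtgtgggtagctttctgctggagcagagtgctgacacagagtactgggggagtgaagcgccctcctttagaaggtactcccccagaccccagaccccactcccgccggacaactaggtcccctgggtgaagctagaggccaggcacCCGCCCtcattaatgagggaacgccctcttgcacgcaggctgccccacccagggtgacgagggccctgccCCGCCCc
Cd59a: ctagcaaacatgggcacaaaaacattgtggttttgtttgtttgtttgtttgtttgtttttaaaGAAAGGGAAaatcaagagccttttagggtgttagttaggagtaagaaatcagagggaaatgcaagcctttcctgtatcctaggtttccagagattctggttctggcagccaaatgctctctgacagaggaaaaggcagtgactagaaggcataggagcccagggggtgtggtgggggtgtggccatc

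C3 was the only one of the 5 with AGGTCA, the half-site of retinoid and related receptors, with its first base at position -243 from the start. Among the 32851 RefSeq promoters of this length, 14.02% hold that motif on either strand. C3 also held 1 match to the C/EBP motif TTNNGCAA, which 9.56% of all promoters hold, and Lcn2 had another. Cd55 held the GC box GGGCGG 2 times, read on the other strand as CCGCCC, and Lcn2 1 time, against 32.7% of all promoters with at least 1. The window of Cd59a had the interferon response motif GAAANNGAA, found in 7.13% of promoters. No match was found in the window of C1ra. The letters of the TATA box (TATAAA, in 12.4% of all promoters), the CCAAT box (CCAAT, 33.8%) and the AP-1 motif (TGANTCA, 6.75%) were in none of the 5 windows. The GC content was highest in Cd55, at 64.0%, and lowest in Cd59a, at 44.8%, with a median of 52.4% over all promoters.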

How the data were processed

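RNA-seq of 8 samples of the mSSC-YFP line was used, 4 with BMS493 and 4 with DMSO, grouped by their titles. Per the paper and the submitters' processing notes, the authors checked reads with FastQC, mapped them to mm10 with STAR 2.3.0e, took gene counts from reads with a unique position (Rsubread, Ensembl genes), normalized these with the trimmed mean of M-values and tested with limma. The protocol in the labels describes amplification for arrays and qPCR instead of a sequencing library. The authors deposited 1 table with decimal commas, whose mean log2 normalized expression over all samples is the single column used. Its other 4 columns hold the fold change, t, p and adjusted p of the authors' own comparison and were not used. A limma fit had been planned for values of single samples, and no test was run. CPM values are 2 to the power of the mean, hence a geometric mean.

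Members and lists were chosen with earlier results of these data known, and the motifs and the sequence search after the values were seen. Named genes are the members, the complement genes with a value and up to 2 genes with a value per marker list, plus Pdgfra. Genes of the lists for which no value was found were named in addition, and some genes of the lists are not reported here. Positions and lengths came from GENCODE M21 (GRCm38), with 11765 genes matched by current and 603 by older symbols, which gave a length for 98.2% of genes. A percentile is the share, among genes with a value, of those below a given level, with ties split evenly. Python 3.11.15, pandas 2.3.3, scipy 1.17.1 and matplotlib 3.10.9 were used, and the functions were tested on simulated data. Alternatives changed the genes ranked against, the transcript length, the limit on low values and the symbols matched.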

Additional observations from a re-analysis of the deposited data

How the results depend on the processing

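No paired analysis was possible because values of single samples were not analysed here. For the same reason the fits without each replicate, without a filter and with another scaling were not run. The 6 members with a value remained 6 when older symbols were matched too. Percentiles moved by more than the exact 95% binomial interval over genes in 17 of 18 cases. That interval depends on the number of genes ranked and does not measure the spread between samples. Among genes with a mean log2 of at least 1 they were 36.2 for C1ra, 9.70 for C3, 38.8 for Cd55, 20.8 for Cd59a, 19.5 for Masp1 and 1.36 for Serping1, which follows from the removal of low genes. Among protein-coding genes they were 36.9, 12.5, 39.5, 22.2, 20.98 and 6.05 in that order. Per kb of transcript they were 42.1 for C1ra, 8.71 for C3, 36.7 for Cd59a, 15.3 for Masp1 and 11.4 for Serping1, and for Cd55 the change was within the interval. In the order per length, C1ra went from place 2 to 1, Cd59a from 3 to 2 and Cd55 from 1 to 3 with the total exon length. With the median transcript length C3 went from 6 to 2, C1ra to 3, Cd59a to 4, Masp1 to 5 and Serping1 to 6, where short partial transcripts set the median of C3 at 608 bases. Of the 14 complement genes, 11 had a mean log2 of at least 1 and 7 of at least 3. Over all genes, 11733 of 12589 reached 1, and the lower quartile, 3.33, was above 3. The precision of each level cannot be given without the depth and values of each sample.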
